A study of Mus musculus with 24 samples.

Results

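Expression of the mammary hormone receptors and of the genes that mark the hormone-sensing luminal cell was followed across 24 mouse arrays. The set was chosen by gene symbol and holds 7 genes of the 18193 named on the array: Esr1, Pgr, Prlr, Foxa1, Cited1, Greb1 and Tnfsf11. Of the 7, 6 had a probe set named for them, with 14 probe sets in all, of which 11 passed the filter on low values. Prlr, the prolactin receptor, had no probe set under its own name in the annotation used and was not analysed here.

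The tumour samples came from 5 mammary adenocarcinomas, A to E, of C57BL6/J mice with the genotype Apc+/1572T, which carry 1 truncated copy of Apc, the brake on Wnt/beta-catenin signalling. The control samples came from 3 pools of mammary glands, F to H, of Apc+/+ mice of the same strain, and the labels do not give the number of glands in a pool. Cells of each tumour and pool were stained and sorted into Lin- cells, which lack the lineage markers, Lin-CD29+CD24+ cells and Lin-CD29hiCD24+ cells, named CD29+CD24+ and CD29hiCD24+ from here on. The stated aim was to set the CD29hiCD24+ cells, taken as stem cells, of tumours against those of normal glands and against the more differentiated cells of the same tissue. The labels name no treatment and give neither age, sex, parity nor oestrous stage. Each group therefore had 5 tumour arrays or 3 normal arrays, and each array was made from 10000 sorted cells.

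In the mammary gland, oestrogen and progesterone act on a subset of luminal cells that make the oestrogen receptor alpha (Esr1) and the progesterone receptor (Pgr), and most other epithelial cells lack both. These hormone-sensing cells also make Foxa1, a pioneer factor that opens chromatin for the oestrogen receptor, and Cited1, a transcriptional co-activator that works with it. They answer through target genes such as Greb1, an oestrogen-induced cofactor of the receptor, and through paracrine signals such as Tnfsf11, the cytokine RANKL, which progesterone induces and which acts on neighbouring cells that carry its receptor RANK.

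Promoter sequence is shown for 1 receptor, the pioneer factor, the target gene and the ligand, so that each role in the pathway is seen once, as the 250 bases 5' of the RefSeq gene start (GRCm38.p6), read along the gene's own strand. Capitals mark the letters of a motif that was searched for on both strands. The windows are Pgr at chr9:8899583-8899832 (plus strand), Foxa1 at chr12:57546112-57546361 (minus strand), Greb1 at chr12:16800887-16801136 (minus strand) and Tnfsf11 at chr14:78308044-78308293 (minus strand).
Pgr: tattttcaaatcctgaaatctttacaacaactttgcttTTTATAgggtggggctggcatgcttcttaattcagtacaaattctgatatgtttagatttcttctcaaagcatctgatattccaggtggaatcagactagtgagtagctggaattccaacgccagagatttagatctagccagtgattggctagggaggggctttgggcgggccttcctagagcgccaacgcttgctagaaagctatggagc
Foxa1: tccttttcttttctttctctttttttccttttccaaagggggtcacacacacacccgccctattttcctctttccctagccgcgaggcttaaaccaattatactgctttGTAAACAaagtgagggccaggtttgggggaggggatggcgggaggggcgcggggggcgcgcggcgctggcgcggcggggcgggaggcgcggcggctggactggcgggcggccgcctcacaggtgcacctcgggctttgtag
Greb1: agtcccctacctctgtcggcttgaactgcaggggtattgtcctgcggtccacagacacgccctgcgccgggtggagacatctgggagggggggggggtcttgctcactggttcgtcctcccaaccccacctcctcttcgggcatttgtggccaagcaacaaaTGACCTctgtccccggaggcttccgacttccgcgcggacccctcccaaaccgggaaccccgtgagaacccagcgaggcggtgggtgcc
Tnfsf11: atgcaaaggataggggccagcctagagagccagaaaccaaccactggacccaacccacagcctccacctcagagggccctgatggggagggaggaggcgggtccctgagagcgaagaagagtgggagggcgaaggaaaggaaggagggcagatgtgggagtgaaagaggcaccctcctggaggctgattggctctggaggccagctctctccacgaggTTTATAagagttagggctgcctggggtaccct
In Greb1 the capitals are a nuclear receptor half-site (AGGTCA on the minus strand of the window) 88 bases before the start, a motif that 14% of 32851 RefSeq promoter windows of this length held. In Foxa1 they are a forkhead motif (TGTTTAC, reverse strand) 141 bases before the start, held by 3.17% of windows. In Pgr and Tnfsf11 they are TATA box letters (TATAAA, reverse strand) 212 and 32 bases before the start, held by 12.4% of windows. The full oestrogen response element GGTCANNNTGACC was found in 0 of the 13 windows of the 7 genes' annotated starts and in 0.0639% of all windows. The half-site of the progesterone and glucocorticoid receptors (TGTTCT, 16.1% of windows), the TCF/LEF motif (CTTTGAT, 3.21%), the STAT motif (TTCNNNGAA, 7.02%) and the AP-1 motif (TGANTCA, 6.75%) were in none of the 4 windows printed here. The nuclear receptor half-site AGGTCA and the full response element share the letters GGTCA, and a match is a description of letters only.

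The deposited values are log2 signals, so a difference of 1 is a 2-fold difference. Between 37.2% and 41.6% of an array's values lay in a low band with an upper edge of 2.83, which 40% of all values do not exceed. A difference that starts there is compressed. Of all genes, 13485 passed the filter and were tested with limma over the 24 arrays, and a gene counts as called where limma's p, adjusted over these genes by Benjamini-Hochberg, is under 0.05. Cell type markers went with the gates in the normal gland. The mean of 10 basal and myoepithelial markers was 12.91 to 13.14 in normal CD29hiCD24+ arrays and 3.37 to 3.74 in normal CD29+CD24+ arrays, and that of 8 luminal markers was 13.58 to 13.68 in normal CD29+CD24+ arrays. The normal CD29hiCD24+ array of pool F stood apart from those of pools G and H, with a mean of 9 leukocyte markers of 7.34 against 3.02 (G) and 3.10 (H). Its mean of 8 endothelial markers was 9.75 against 6.86 and 7.76, and that of the luminal markers 9.73 against 11.87 and 11.71. Some of the results that rest on this array, but not all, are also given without it. Tumour arrays of all 3 populations carried keratinocyte markers, with means of 9 genes from 8.63 to 12.50 against 4.75 to 6.76 in normal arrays, and tumour CD29+CD24+ arrays carried basal markers at 8.78 to 9.21.

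**Figure D1:**
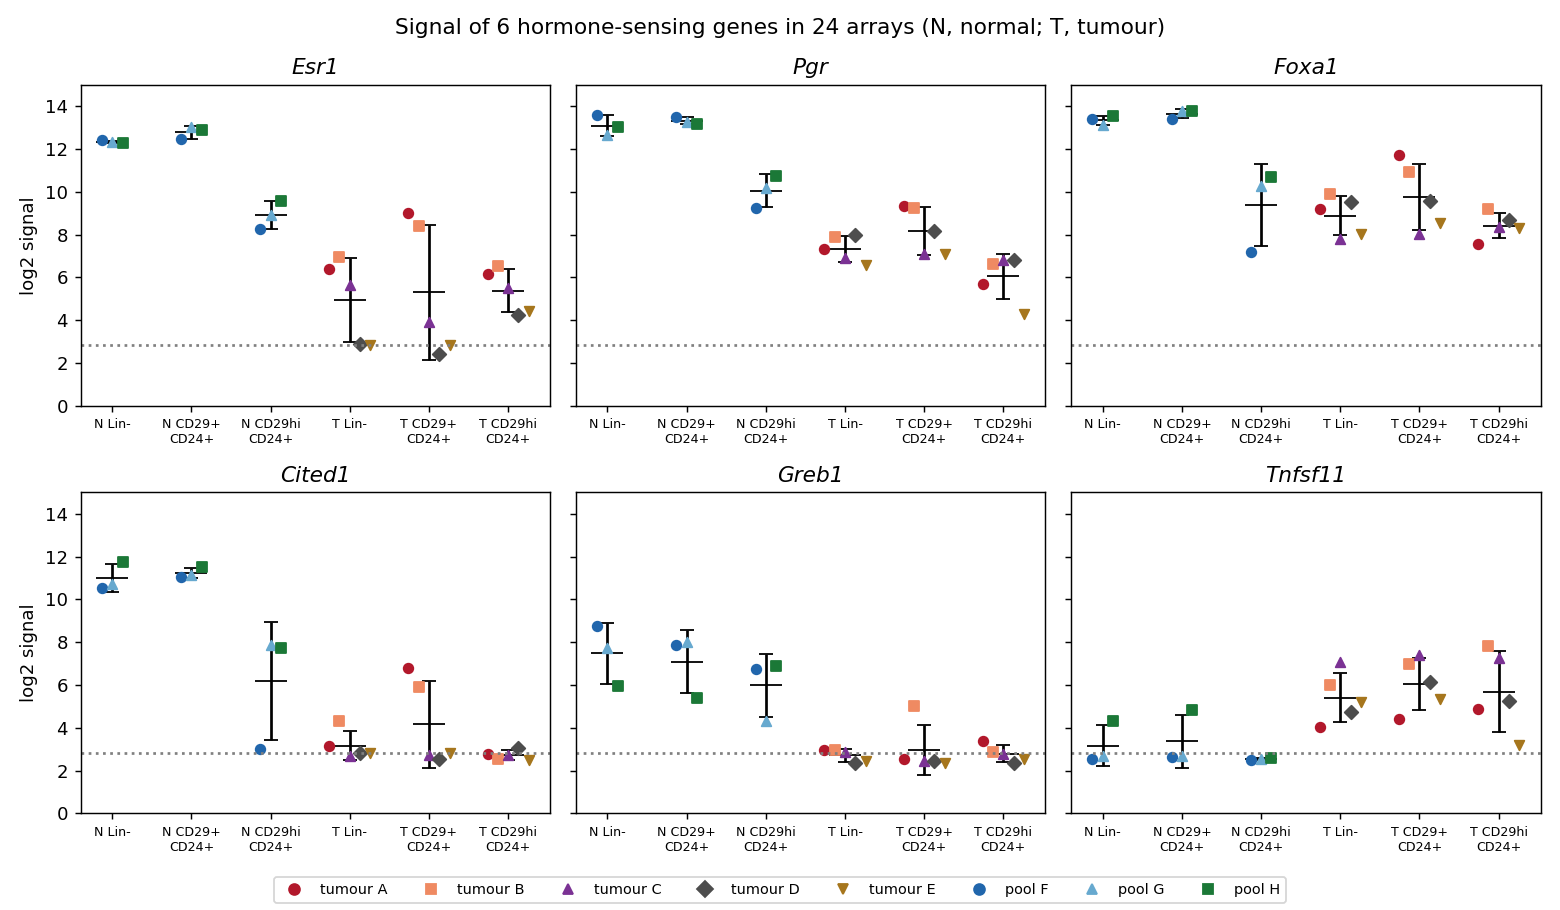
Log2 signal of the 6 measured genes in each of the 24 arrays, by sorted population (N, normal; T, tumour), with the mean and SD of each group as a black line and bars and the upper edge of the low band (2.83) as a dotted line. Esr1, Pgr, Foxa1, Cited1 and Greb1 were highest in the normal Lin- and CD29+CD24+ arrays, and Tnfsf11 was highest in tumour arrays.

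The first question is how tumour cells differ from normal cells of the same gate. Of the 6 measured genes, 5 were called in CD29hiCD24+ cells, 4 lower and 1 higher, where 38.6% of all genes tested were called, 22.9% lower and 15.6% higher in the tumours. With quantile normalization of the arrays the share of all calls that were higher in tumours moved from 40.5% to 53.6% in this comparison, and the members' count stayed 4 lower and 1 higher. In CD29+CD24+ cells all 6 were called, 5 lower and 1 higher, against 43.5% of all genes called, 27.1% lower and 16.4% higher. In Lin- cells 5 were called and all 5 were lower, against 40.6% of all genes, 26.6% lower and 13.9% higher. The median log2 difference over the 6 genes was -3.33 in CD29hiCD24+, -4.63 in CD29+CD24+ and -5.27 in Lin- cells, and over all genes tested it was -0.01, -0.01 and -0.08. In sorted bulk RNA, fewer hormone-sensing cells in a sample and less RNA per such cell cannot be told apart. Luminal markers in general fell in the same comparisons, 4 of 8 in CD29hiCD24+, 8 of 8 in CD29+CD24+ and 7 of 8 in Lin- cells, and the part of cell makeup in the members' differences was not tested.

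**Figure D2:**
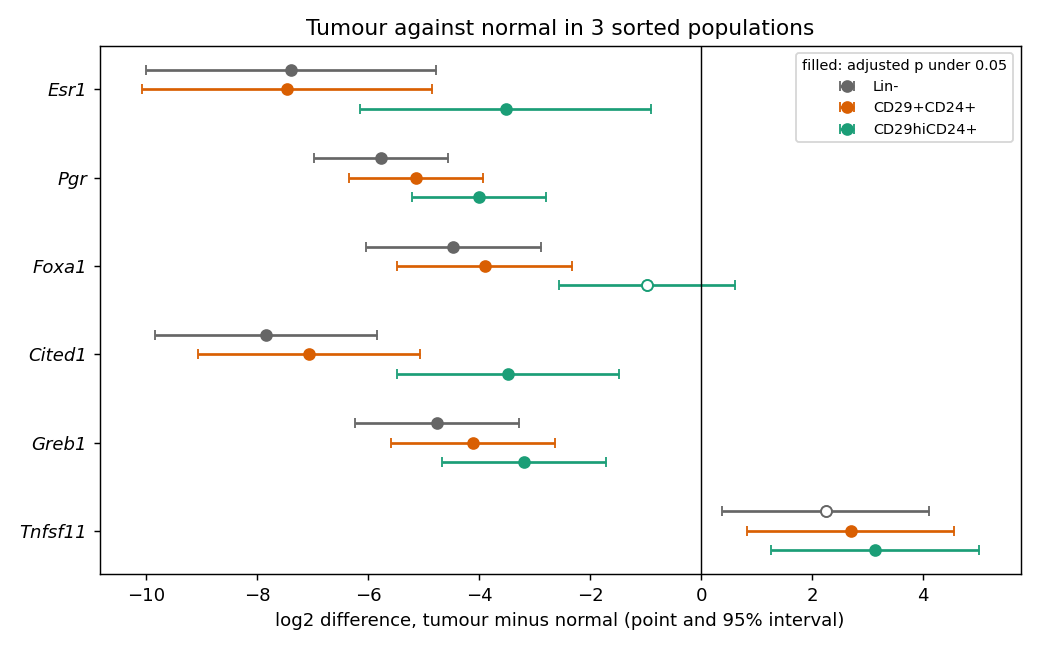
Log2 difference, tumour minus normal, of the 6 genes in each sorted population, as the limma estimate with its 95% interval over 5 tumour and 3 normal arrays (filled points, adjusted p under 0.05). The intervals of Pgr, Cited1, Greb1 and Esr1 lie below 0 in all 3 populations, that of Foxa1 in CD29hiCD24+ cells crosses 0, and those of Tnfsf11 lie above 0.

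Esr1 encodes oestrogen receptor alpha, the nuclear receptor through which oestrogen acts on the gland. Its log2 signal in normal CD29+CD24+ cells was 12.45 (F), 13.02 (G) and 12.88 (H), and in tumour CD29+CD24+ cells it was 9.0 (A), 8.42 (B), 3.91 (C), 2.42 (D) and 2.83 (E). Every tumour lay below every pool, with tumours A and B above 8 and the other 3 below 4. The difference was -7.47 ± 1.26 (SE; adjusted p = 5.39e-05, limma). In Lin- cells the pools were at 12.40, 12.33 and 12.29 (F, G, H) and the tumours at 6.40 (A), 6.95 (B), 5.66 (C), 2.88 (D) and 2.85 (E), a difference of -7.39 ± 1.26 (adjusted p = 7.39e-05, limma). In CD29hiCD24+ cells the pools were lower, at 8.25, 8.90 and 9.56, and the tumours stood at 6.18 (A), 6.51 (B), 5.5 (C), 4.26 (D) and 4.44 (E). The groups again did not overlap, and the difference was -3.52 ± 1.26 (adjusted p = 0.031, limma), 11.5-fold. That last call was lost without any 1 of the pools (adjusted p 0.0677 without F, 0.0933 without G and 0.132 without H), without tumour C (0.0531), and without the CD29hiCD24+ array of pool F alone (-3.85, 0.0501), while the estimate stayed between -3.85 and -3.19 in these fits. The SE draws on 1 spread shared by all 6 groups, among them tumour CD29+CD24+ cells with an SD of 3.15. With the range of the sample description numbers as a term the CD29hiCD24+ difference was -5.37. Only tumour E shares a range with the pools, so the level against the pools rests on that 1 tumour in this fit. By mean the order was normal CD29+CD24+ (12.79 ± 0.30, SD, n = 3), normal Lin- (12.34 ± 0.06, n = 3), normal CD29hiCD24+ (8.90 ± 0.66, n = 3), then tumour CD29hiCD24+ (5.38 ± 1.01), CD29+CD24+ (5.32 ± 3.15) and Lin- (4.95 ± 1.95; n = 5 each), and of these neighbours only the 3 tumour groups overlapped.

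Pgr encodes the progesterone receptor, itself a target of the oestrogen receptor. Its log2 signal was 13.50 (F), 13.29 (G) and 13.20 (H) in normal CD29+CD24+ cells and 9.36 (A), 9.27 (B), 7.08 (C), 8.17 (D) and 7.08 (E) in tumour CD29+CD24+ cells. In Lin- cells it was 13.62, 12.64 and 13.05 in the pools and 7.32 (A), 7.88 (B), 6.90 (C), 7.99 (D) and 6.58 (E) in the tumours. All tumour arrays lay below all pool arrays in both populations, and none of them was in the low band. The differences were -5.14 ± 0.58 (adjusted p = 3.56e-07, limma) and -5.77 ± 0.58 (adjusted p = 9.97e-08). In CD29hiCD24+ cells the pools were at 9.23 (F), 10.19 (G) and 10.73 (H) and the tumours at 5.72 (A), 6.61 (B), 6.80 (C), 6.80 (D) and 4.31 (E). Here too the groups did not overlap, with a difference of -4.00 ± 0.58 (adjusted p = 1.53e-05, limma), 16.1-fold. In order of mean, normal CD29+CD24+ (13.33 ± 0.16, SD, n = 3) and normal Lin- (13.10 ± 0.49, n = 3) overlapped, normal CD29hiCD24+ (10.05 ± 0.76, n = 3) overlapped with tumour CD29+CD24+ (8.19 ± 1.12, n = 5), and tumour Lin- (7.33 ± 0.61, n = 5) overlapped with both tumour CD29+CD24+ and tumour CD29hiCD24+ (6.05 ± 1.07, n = 5).

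Foxa1, the forkhead pioneer factor of oestrogen receptor binding, kept signal above the low band in all 24 arrays. In CD29+CD24+ cells it was 13.40 (F), 13.79 (G) and 13.79 (H) in the pools and 11.71 (A), 10.94 (B), 8.04 (C), 9.56 (D) and 8.53 (E) in the tumours. In Lin- cells it was 13.40, 13.13 and 13.54 in the pools and 9.19 (A), 9.89 (B), 7.81 (C), 9.51 (D) and 8.05 (E) in the tumours. Every tumour was below every pool in these 2 populations, by -3.90 ± 0.76 (adjusted p = 0.00026, limma) and -4.46 ± 0.76 (adjusted p = 7.39e-05). In CD29hiCD24+ cells the pools were at 7.21 (F), 10.28 (G) and 10.71 (H) and the tumours at 7.58 (A), 9.18 (B), 8.36 (C), 8.68 (D) and 8.31 (E). Pool F lay below all 5 tumours and the other pools above all of them, and the difference of -0.98 ± 0.76 was not called (adjusted p = 0.336, limma; 95% interval -2.56 to 0.60). Without the CD29hiCD24+ array of pool F it was -2.08 and was called (adjusted p = 0.0346). The order of means was normal CD29+CD24+ (13.66 ± 0.23, SD, n = 3), normal Lin- (13.36 ± 0.21, n = 3), tumour CD29+CD24+ (9.76 ± 1.56, n = 5), normal CD29hiCD24+ (9.40 ± 1.91, n = 3), tumour Lin- (8.89 ± 0.91, n = 5) and tumour CD29hiCD24+ (8.42 ± 0.59, n = 5), where the first pair overlapped, as did all neighbours among the last 4.

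Cited1, a co-activator expressed in hormone-sensing luminal cells, showed the largest differences of the 6 genes in Lin- cells. Its log2 signal there was 10.53 (F), 10.74 (G) and 11.75 (H) in the pools and 3.17 (A), 4.33 (B), 2.70 (C), 2.82 (D) and 2.80 (E) in the tumours, 3 of which were in the low band. The difference was -7.84 ± 0.96 (adjusted p = 1.38e-06, limma). In CD29+CD24+ cells it was 11.07, 11.14 and 11.51 in the pools and 6.81 (A), 5.93 (B), 2.74 (C), 2.55 (D) and 2.81 (E) in the tumours, so that signal outside the low band was found in tumours A and B. The difference was -7.07 ± 0.96 (adjusted p = 3.98e-06, limma). In CD29hiCD24+ cells the pools were at 3.01 (F), 7.87 (G) and 7.72 (H) and the tumours at 2.79 (A), 2.54 (B), 2.75 (C), 3.04 (D) and 2.50 (E). Pool F lay among the tumours and the other pools well above them, and the difference was -3.47 ± 0.96 (adjusted p = 0.00662, limma). This call was lost without pool G (-2.64, adjusted p = 0.0787) or pool H (-2.71, adjusted p = 0.0735). By mean the order was normal CD29+CD24+ (11.24 ± 0.24, SD, n = 3), normal Lin- (11.01 ± 0.65, n = 3), normal CD29hiCD24+ (6.20 ± 2.76, n = 3) and tumour CD29+CD24+ (4.17 ± 2.04), Lin- (3.16 ± 0.67) and CD29hiCD24+ (2.72 ± 0.22; n = 5 each), and every pair of neighbours overlapped except normal Lin- and normal CD29hiCD24+.

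Greb1, a target gene and cofactor of the oestrogen receptor, varied between pools, with an SD of 1.43 to 1.48 in each of the 3 normal groups. Its log2 signal was 7.86 (F), 8.03 (G) and 5.38 (H) in normal CD29+CD24+ cells, 8.78, 7.71 and 5.94 in normal Lin- cells and 6.75, 4.30 and 6.90 in normal CD29hiCD24+ cells. In the tumours it was 2.55 (A), 5.03 (B), 2.43 (C), 2.47 (D) and 2.37 (E) in CD29+CD24+ cells, 2.96, 2.97, 2.85, 2.36 and 2.43 in Lin- cells and 3.40, 2.87, 2.78, 2.34 and 2.56 in CD29hiCD24+ cells (A to E each). Of the 15 tumour arrays, 9 were in the low band and 1, the CD29+CD24+ array of tumour B, was above 3.5, and the tumours lay below the pools in all 3 populations. The differences were -4.12 ± 0.71 in CD29+CD24+ (adjusted p = 7.04e-05, limma), -4.76 ± 0.71 in Lin- (adjusted p = 1.62e-05) and -3.19 ± 0.71 in CD29hiCD24+ cells (adjusted p = 0.00121). The 3 normal groups overlapped with each other (7.48 ± 1.43 in Lin-, 7.09 ± 1.48 in CD29+CD24+ and 5.98 ± 1.46 in CD29hiCD24+ cells; SD, n = 3 each), as did the 3 tumour groups (2.97 ± 1.15 in CD29+CD24+, 2.79 ± 0.40 in CD29hiCD24+ and 2.72 ± 0.30 in Lin- cells; SD, n = 5 each).

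Tnfsf11, the paracrine ligand RANKL, went the other way. In normal glands 7 of 9 arrays were in the low band, with 2.52 (F), 2.54 (G) and 2.61 (H) in CD29hiCD24+ cells, 2.61, 2.67 and 4.82 in CD29+CD24+ cells and 2.55, 2.66 and 4.30 in Lin- cells. Signal above the low band in the normal gland came from pool H alone. The tumours were at 4.88 (A), 7.83 (B), 7.27 (C), 5.27 (D) and 3.18 (E) in CD29hiCD24+ cells, at 4.41, 6.99, 7.42, 6.14 and 5.33 in CD29+CD24+ cells and at 4.06, 5.98, 7.06, 4.75 and 5.22 in Lin- cells (A to E each), and none was in the low band. In CD29hiCD24+ cells the groups did not overlap and the difference was 3.13 ± 0.90 (adjusted p = 0.00857, limma), 8.76-fold. In CD29+CD24+ cells pool H lay above tumour A, and the difference was 2.69 ± 0.90 (adjusted p = 0.0188, limma), a call that was lost without pool F (2.32, adjusted p = 0.111) or pool G (2.34, adjusted p = 0.104). In Lin- cells the difference of 2.24 ± 0.90 missed the threshold (adjusted p = 0.0517, limma) and passed it with the tumour or pool as a random block (adjusted p = 0.0292). The tumours were numbered in 3 ranges of the sample descriptions (A and B, C and D, and E together with all pools). With that range as a term the Tnfsf11 differences were smaller, 1.99 in CD29hiCD24+, 1.55 in CD29+CD24+ and 1.10 in Lin- cells. The level against the pools rests on tumour E alone in this fit, so it is no adjusted comparison of 5 tumours with 3 pools. Tumour E, which shares its range with the pools, was above the 3 pools in all 3 populations. By mean the tumour groups stood in the order CD29+CD24+ (6.06 ± 1.22), CD29hiCD24+ (5.69 ± 1.89) and Lin- (5.41 ± 1.16; SD, n = 5 each), all overlapping, above normal CD29+CD24+ (3.37 ± 1.26), Lin- (3.17 ± 0.98) and CD29hiCD24+ (2.56 ± 0.05; SD, n = 3 each). The lowest tumour group and the highest normal group overlapped through pool H. The normal Lin- group overlapped with both the normal CD29+CD24+ and the normal CD29hiCD24+ group.

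The next comparison sets the CD29hiCD24+ gate against the more differentiated CD29+CD24+ gate of the same tissue. In normal glands 4 of the 6 genes were lower in CD29hiCD24+ cells and none was higher, where 46.6% of all genes tested were called, 25.3% of all genes lower. Cited1 differed by -5.04 ± 1.07 (adjusted p = 0.000582, limma), Foxa1 by -4.26 ± 0.85 (0.000303), Esr1 by -3.88 ± 1.40 (0.0277) and Pgr by -3.28 ± 0.65 (0.000293), and in these 4 genes the 2 gates did not overlap. The share of all genes tested whose gates did not overlap was not counted, so the separation is a description only. Greb1 (-1.11 ± 0.79, adjusted p = 0.28) and Tnfsf11 (-0.81 ± 1.0, adjusted p = 0.576) were not called by the probe set that stands for the gene. Both other Greb1 probe sets that passed the filter were called lower, 1419593_at at -1.31 and 1445323_at at -0.89 (adjusted p 0.0371 and 0.0326 over 24278 probe sets, limma), the second with all 3 CD29hiCD24+ arrays in the low band. The median over the 6 genes was -3.58 against -0.03 over all genes. Without the CD29hiCD24+ array of pool F, 3 genes were called, since Esr1 no longer passed (-3.55, adjusted p = 0.0854). Esr1 was also lost without any 1 of the pools F, G or H (adjusted p 0.136, 0.119 and 0.0868), and Greb1 was called without pool H (-2.42, adjusted p = 0.0174). The Esr1 SE of 1.40 draws on 1 spread shared by all 6 groups. The Esr1 SD was 3.15 in tumour CD29+CD24+ cells, but 0.66 and 0.30 in normal CD29hiCD24+ and CD29+CD24+ cells. Within the pools the Esr1 difference was -4.20 (F), -4.12 (G) and -3.32 (H). The actin signal at the 3' end minus that at the 5' end, a sign of RNA shortening, was 2.20 to 2.89 in the normal CD29hiCD24+ arrays and 1.41 to 1.83 in the normal CD29+CD24+ arrays, and with it as a covariate the Esr1 difference was -2.61 (adjusted p = 0.257). These comparisons use the same normal CD29hiCD24+ arrays as the comparison with the tumours.

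Against normal Lin- cells, which hold both gates, 3 of the 6 genes were lower in normal CD29hiCD24+ cells, where 40.2% of all genes were called. These were Cited1 (-4.81 ± 1.07, adjusted p = 0.00123, limma), Foxa1 (-3.96 ± 0.85, 0.000864) and Pgr (-3.05 ± 0.65, 0.000821). All 3 differences use the CD29hiCD24+ array of pool F and are not given here without it. Without that array 33.3% of all genes were called. Esr1 differed by -3.44 ± 1.40 (adjusted p = 0.057), and passed with the pool as a random block (adjusted p = 0.00835). Between normal CD29+CD24+ and Lin- cells 0 of the 6 genes were called by limma, where 4.19% of all genes were called, and 0 of the 6 had an unadjusted p under 0.05. The log2 differences of the 6 genes there ran from -0.39 (Greb1) to 0.45 (Esr1).

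In tumours the gates differed less in count. Of the 6 genes, 1 was lower in tumour CD29hiCD24+ than in tumour CD29+CD24+ cells, where 4.19% of all genes were called; with quantile normalization the share of those calls that were higher in CD29hiCD24+ cells moved from 53.8% to 69.5%. The gene was Pgr, at -2.15 ± 0.50 (adjusted p = 0.0201, limma), with no overlap between the gates, and it was lower in CD29hiCD24+ cells within each of the 5 tumours, by 3.65 (A), 2.66 (B), 0.28 (C), 1.38 (D) and 2.76 (E) in log2 signal. The call was lost without tumour A (adjusted p = 0.108), without tumour B (0.0774) and without both (-1.47, adjusted p = 0.262). Esr1 differed by 0.06 ± 1.09 (adjusted p = 0.996), with values of opposite sign within tumours. Against tumour Lin- cells 0 of the 6 genes were called in CD29hiCD24+ cells by limma, where 8.36% of all genes were called. The share of those calls that were higher moved from 44.7% to 61.7% with quantile normalization. At an unadjusted p under 0.05 (limma) 1 of the 6 genes passed, and the share of all genes at that threshold was not counted. That gene was Pgr (-1.28 ± 0.50, adjusted p = 0.122), which was called with the tumour or pool as a random block (adjusted p = 0.0351). Between tumour CD29+CD24+ and Lin- cells 0 of the 6 genes were called by limma, where 0.215% of all genes were called, and 0 of the 6 had an unadjusted p under 0.05.

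The 5 tumours were not alike in their CD29+CD24+ cells. Esr1 in CD29hiCD24+ minus CD29+CD24+ cells was -2.82 in tumour A and -1.90 in tumour B, and 1.59, 1.84 and 1.61 in tumours C, D and E. In the 3 pools it was -4.20 (F), -4.12 (G) and -3.32 (H), so that by this probe set tumours A and B had the sign of the normal gland and tumours C, D and E the opposite one. In CD29+CD24+ cells tumour D (2.42) was in the low band and tumour E (2.83) at its edge. By the other Esr1 probe set that passed the filter, 1435663_at, tumour D had the sign of the normal gland (2.93 in CD29hiCD24+ and 3.33 in CD29+CD24+ cells). Tumours C (4.10 and 3.27) and E (3.35 and 2.84) kept the opposite sign there. Cited1 showed the same tumours apart, at -4.02 (A) and -3.39 (B) against 0.01 (C), 0.49 (D) and -0.30 (E), and Foxa1 differed by -4.13 (A) and -1.76 (B) against 0.32 (C), -0.88 (D) and -0.22 (E). The mean of the 8 general luminal markers in CD29+CD24+ cells was 12.29 (A) and 11.93 (B) against 9.99 (C), 9.63 (D) and 10.01 (E), and that of the 9 luminal progenitor and alveolar markers was 10.66 and 9.56 against 7.96, 7.48 and 6.66. Tumours A and B share the range of description numbers 19 to 24, and number range and tumour cannot be told apart here. These tumours were told apart by their values, so the contrast between them is a description with no test.

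**Figure D3:**
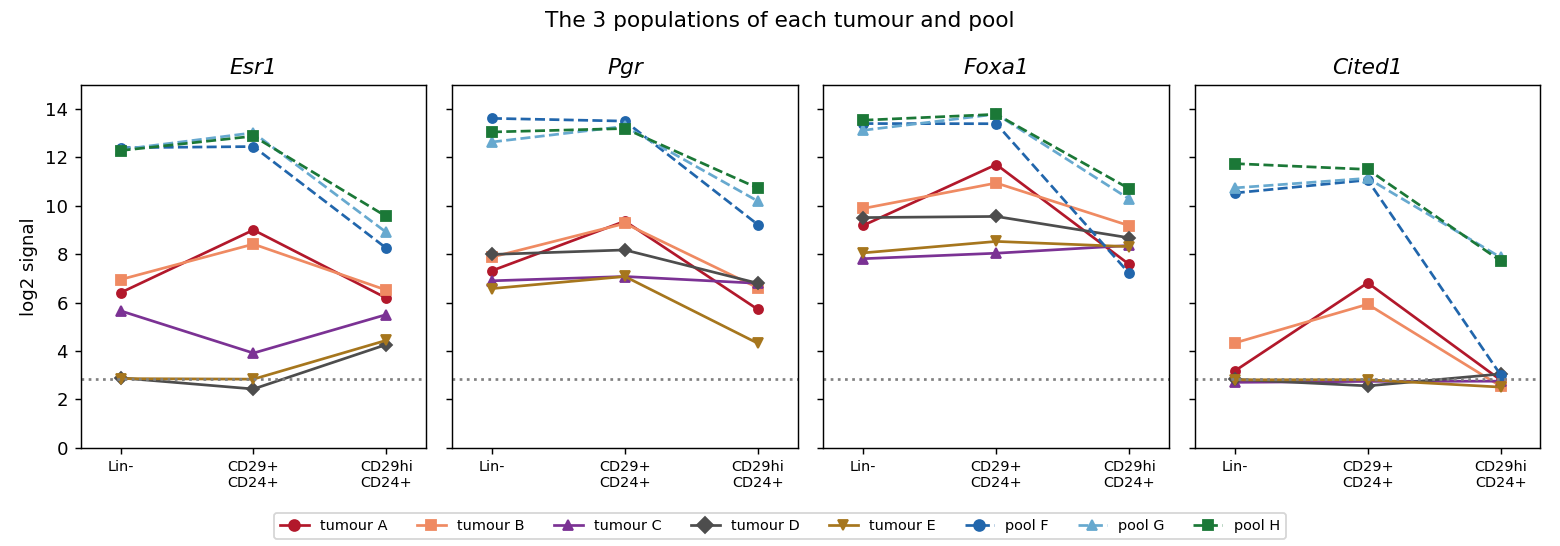
Log2 signal of Esr1, Pgr, Foxa1 and Cited1 in the 3 sorted populations of each tumour (solid lines) and pool (dashed lines), with the upper edge of the low band dotted. Tumours A and B rise from Lin- to CD29+CD24+ cells in Esr1, Pgr, Foxa1 and Cited1, and in Pgr tumours C, D and E rise too, by less. All 3 pools drop from CD29+CD24+ to CD29hiCD24+ cells.

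The difference between gates was then compared between tumour and normal tissue with an interaction term. It was called for 2 of the 6 genes, where 42% of all genes tested were called, so the count does not stand out from the background. The step from CD29+CD24+ to CD29hiCD24+ cells was smaller in tumours by 3.60 ± 1.36 for Cited1 (adjusted p = 0.0384, limma) and by 2.92 ± 1.07 for Foxa1 (adjusted p = 0.0336). Esr1 had an estimate of 3.95 ± 1.78 (adjusted p = 0.0809) and was called with the tumour or pool as a random block (adjusted p = 0.015). Without the normal CD29hiCD24+ array of pool F neither Cited1 (2.0, adjusted p = 0.178) nor Foxa1 (1.83, adjusted p = 0.152) was called. Both were also lost without tumour C, D or E and with the actin signal as a covariate. Leaving out pool G ended the Foxa1 call (3.3, adjusted p = 0.053). The estimates were 1.13 ± 0.82 for Pgr, 0.93 ± 1.0 for Greb1 and 0.44 ± 1.27 for Tnfsf11, and none of the 3 was called. Among the other probe sets, tested over 24278 probe sets with limma, 1435663_at of Esr1 was called (3.33 ± 1.27, adjusted p = 0.044), as were 1421444_at (2.92 ± 0.63, adjusted p = 0.00103) and 1455772_at (3.37 ± 0.73, adjusted p = 0.00101) of Pgr. These Pgr probe sets were in the low band on all 15 tumour arrays, so they cannot show a gate difference in tumours. For Cited1 both gates of tumours C and E were in the low band.

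The members' other probe sets did not all follow the one with the highest mean. For Esr1, 1435663_at gave -2.59 ± 0.90 in CD29hiCD24+ (adjusted p = 0.0297 over 24278 probe sets, limma), -5.92 ± 0.90 in CD29+CD24+ and -5.76 ± 0.90 in Lin- cells, beside 1460591_at, which stands for the gene above. For Pgr, 1421444_at and 1455772_at were called in CD29+CD24+ cells (-3.27 and -3.35) and in Lin- cells (-1.91 and -2.46). In CD29hiCD24+ cells they gave -0.34 and 0.01 with 7 and 8 of the 8 arrays in the low band, so they cannot show a fall there. For Greb1, 1419593_at gave -0.98 ± 0.44 in CD29hiCD24+ cells (adjusted p = 0.093) and was called in the other 2 populations (-2.34 and -2.18). Greb1's 1445323_at gave -0.05 in CD29hiCD24+ cells, with all 8 arrays in the low band, and was called in CD29+CD24+ (-0.92) and Lin- cells (-1.36). Probe set 1421244_at of Esr1, 1451944_a_at of Tnfsf11 and 1445324_s_at of Greb1 were in the low band in all 24 arrays, so the rise of Tnfsf11 rests on 1419083_at alone.

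The pathways around the members are described from gene lists. Of 8 other measured genes of hormone-sensing luminal cells, 7 fell in tumour CD29+CD24+ and 7 in Lin- cells, with none higher, and in CD29hiCD24+ cells 2 fell and 2 rose. Of all genes tested 27.1% fell in CD29+CD24+ and 26.6% in Lin- cells. In CD29hiCD24+ cells 22.9% fell and 15.6% rose, 38.6% in either direction, so the list's count there is near the background. Prom1, a surface marker of these cells, fell by 3.47 ± 0.68 in CD29hiCD24+, 5.69 ± 0.68 in CD29+CD24+ and 6.67 ± 0.68 in Lin- cells in log2 signal. Wnt4, a Wnt ligand that progesterone induces, fell by 4.30 ± 0.50 in CD29+CD24+ and 4.81 ± 0.50 in Lin- cells, and differed by 0.76 ± 0.50 in CD29hiCD24+ cells (adjusted p = 0.248, limma). The 2 that rose in CD29hiCD24+ cells were Msx2 (2.26 ± 0.51), a homeobox factor, and Wnt5a (1.67 ± 0.39), a non-canonical Wnt ligand, and both fell in the other populations. In normal glands 7 of the 8 were lower in CD29hiCD24+ than in CD29+CD24+ cells, with a median of -3.97, where 46.6% of all genes were called, 25.3% lower. Without the CD29hiCD24+ array of pool F 4 of the 8 were lower. In that fit 40.5% of all genes were called, with 2893 of 13485 lower. Between tumour and normal the median of these 8 genes was -0.16 in CD29hiCD24+, -3.13 in CD29+CD24+ and -3.14 in Lin- cells.

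In the RANK pathway, which receives the Tnfsf11 signal, 2 of 9 genes rose in CD29hiCD24+ cells, 4 in CD29+CD24+ and 5 in Lin- cells, and none fell, where 15.6%, 16.4% and 13.9% of all genes rose, so the count in CD29hiCD24+ cells is near the background. With quantile normalization the count in CD29hiCD24+ cells was 5, and the genes that rose among all tested went from 2105 to 2878. Tnfrsf11b, the secreted decoy receptor osteoprotegerin that binds RANKL, rose most: its mean log2 signal was 11.95 ± 0.67 (SD, n = 5) in tumour and 7.83 ± 0.46 (SD, n = 3) in normal CD29hiCD24+ cells, and 11.64 ± 0.40 against 4.27 ± 0.18 in CD29+CD24+ cells. The differences were 4.12 ± 0.35, 7.36 ± 0.35 and, in Lin- cells, 6.48 ± 0.35 (adjusted p 1.37e-08, 6.09e-13 and 9.62e-12, limma), with no overlap between tumours and pools in any of the 3. Ccnd1, the cell cycle gene cyclin D1, rose by 1.23 ± 0.26 in CD29hiCD24+ cells, and Id2, an inhibitor of differentiation factors, rose by 1.86 ± 0.45 in CD29+CD24+ cells. The receptor itself, Tnfrsf11a (RANK), was at 2.88 ± 0.10 in tumour and 3.57 ± 1.34 in normal CD29hiCD24+ cells, close to the low band, and was not called (-0.69 ± 0.31, adjusted p = 0.0896); it is named outside the naming rule, after its values were seen.

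The prolactin and STAT5 pathway, which drives the secretory programme downstream of the prolactin receptor, is represented by 13 measured genes. Of these, 4 fell in CD29hiCD24+, 6 in CD29+CD24+ and 6 in Lin- cells, and 1 rose in CD29+CD24+ cells, where 22.9%, 27.1% and 26.6% of all genes fell and 38.6%, 43.5% and 40.6% were called in either direction. The called share of the list in CD29hiCD24+ and Lin- cells is below or near that of all genes. Stat5a, the pathway's main transcription factor in the gland, fell by 2.43 ± 0.33, 3.76 ± 0.33 and 3.80 ± 0.33 in log2 signal in CD29hiCD24+, CD29+CD24+ and Lin- cells (adjusted p 7.73e-06, 9.68e-09 and 1.34e-08, limma). Stat5b fell in CD29+CD24+ (2.69 ± 0.36) and Lin- cells (1.64 ± 0.36). Elf5, the alveolar transcription factor, fell by 3.21 ± 0.84 in CD29+CD24+ and 2.57 ± 0.84 in Lin- cells. Socs2, a feedback inhibitor of cytokine signalling, fell by 2.89 ± 0.28 in CD29hiCD24+ cells. The milk protein gene Csn3 fell by 6.0 ± 2.25 in CD29+CD24+ cells, with overlapping groups, and the mean of the 13 genes was 10.76 in tumour A against 6.21 to 7.85 in the other tumours in that gate.

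Genes listed as oestrogen responsive moved in both directions. Of 15 measured, 7 rose and 1 fell in tumour CD29hiCD24+ cells, 4 rose and 3 fell in CD29+CD24+ cells, and 4 rose and 2 fell in Lin- cells, with medians of 0.45, 0.06 and 0.23. Over all genes tested 38.6%, 43.5% and 40.6% were called in these 3 comparisons, so the counts in CD29+CD24+ and Lin- cells are near that background and are no result about the list. Car12, a carbonic anhydrase, rose by 6.07 ± 0.26, 8.14 ± 0.26 and 7.83 ± 0.26 in the 3 populations (CD29hiCD24+, CD29+CD24+, Lin-), and Rerg, a small GTPase, by 2.68 ± 0.37, 5.95 ± 0.37 and 5.13 ± 0.37. Igfbp4, a binding protein of insulin-like growth factors, rose by 6.90 ± 0.67 in CD29+CD24+ cells. Stc2, the secreted glycoprotein stanniocalcin, fell by 5.54 ± 0.71 in CD29+CD24+ and 6.11 ± 0.71 in Lin- cells, and Cxcl12, a chemokine, fell by 6.84 ± 1.04 in CD29hiCD24+ cells. All 8 endothelial markers fell in that last comparison too, from a mean of 8.12 ± 1.48 (SD, n = 3) in normal to 3.23 ± 0.41 (SD, n = 5) in tumour arrays, and their part in the Cxcl12 difference was not tested.

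Among 9 measured genes listed as responsive to progesterone or glucocorticoids, 3 fell in CD29hiCD24+ cells, 3 rose and 2 fell in CD29+CD24+ cells, and 2 rose and 2 fell in Lin- cells, against 38.6%, 43.5% and 40.6% of all genes called in either direction. The list's counts in CD29hiCD24+ and Lin- cells do not stand out from that background. Zbtb16, a zinc-finger repressor, fell in all 3, by 2.85 ± 0.40, 3.75 ± 0.40 and 4.43 ± 0.40 in log2 signal. Id4, an inhibitor of differentiation made by basal cells, rose by 8.41 ± 0.50 in CD29+CD24+ cells. Of the 10 basal and myoepithelial markers 6 also rose there and none fell, with Krt14 up by 10.67 ± 0.41. Of 17 measured cofactors and partners of the oestrogen receptor, 10 fell and 1 rose in CD29hiCD24+ cells, 3 fell and 5 rose in CD29+CD24+ cells, and 4 fell and 6 rose in Lin- cells. Of all genes 22.9%, 27.1% and 26.6% fell and 15.6%, 16.4% and 13.9% rose, so the CD29+CD24+ count is near the 43.5% called in either direction. With quantile normalization the share of all CD29hiCD24+ calls that were higher moved from 40.5% to 53.6%, and the list's counts in that setting are not given here. Spdef, a luminal ETS factor, fell by 1.12 ± 0.40, 5.20 ± 0.40 and 5.35 ± 0.40, and Tfap2c, an AP-2 factor, rose by 3.3 ± 0.25 in CD29+CD24+ and 1.49 ± 0.25 in Lin- cells. Gata3, the luminal lineage factor, fell by 1.06 ± 0.29 in CD29+CD24+ cells, and Kmt2c, a histone methyltransferase, by 1.60 ± 0.24 in CD29hiCD24+ cells.

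Of 19 other hormone receptors measured, 4 rose and 7 fell in CD29hiCD24+ cells, 4 rose and 7 fell in CD29+CD24+ cells, and 3 rose and 5 fell in Lin- cells. With 38.6%, 43.5% and 40.6% of all genes called, the Lin- count is near the background, and single receptors are given as values only. Nr3c2, the mineralocorticoid receptor, fell by 2.84 ± 0.63, 3.48 ± 0.63 and 4.05 ± 0.63 in CD29hiCD24+, CD29+CD24+ and Lin- cells. Lepr, the leptin receptor, fell by 4.11 ± 0.76 in CD29hiCD24+ and 3.01 ± 0.76 in CD29+CD24+ cells. Esrrg, an orphan receptor related to the oestrogen receptor, fell by 4.19 ± 0.70 in CD29+CD24+ and 3.94 ± 0.70 in Lin- cells. Igf1r, the receptor of insulin-like growth factor, rose by 4.15 ± 0.29 in CD29+CD24+ and 2.04 ± 0.29 in Lin- cells, and Rarg, a retinoic acid receptor, rose by 1.71 ± 0.25 in CD29hiCD24+ cells.

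**Figure D4:**
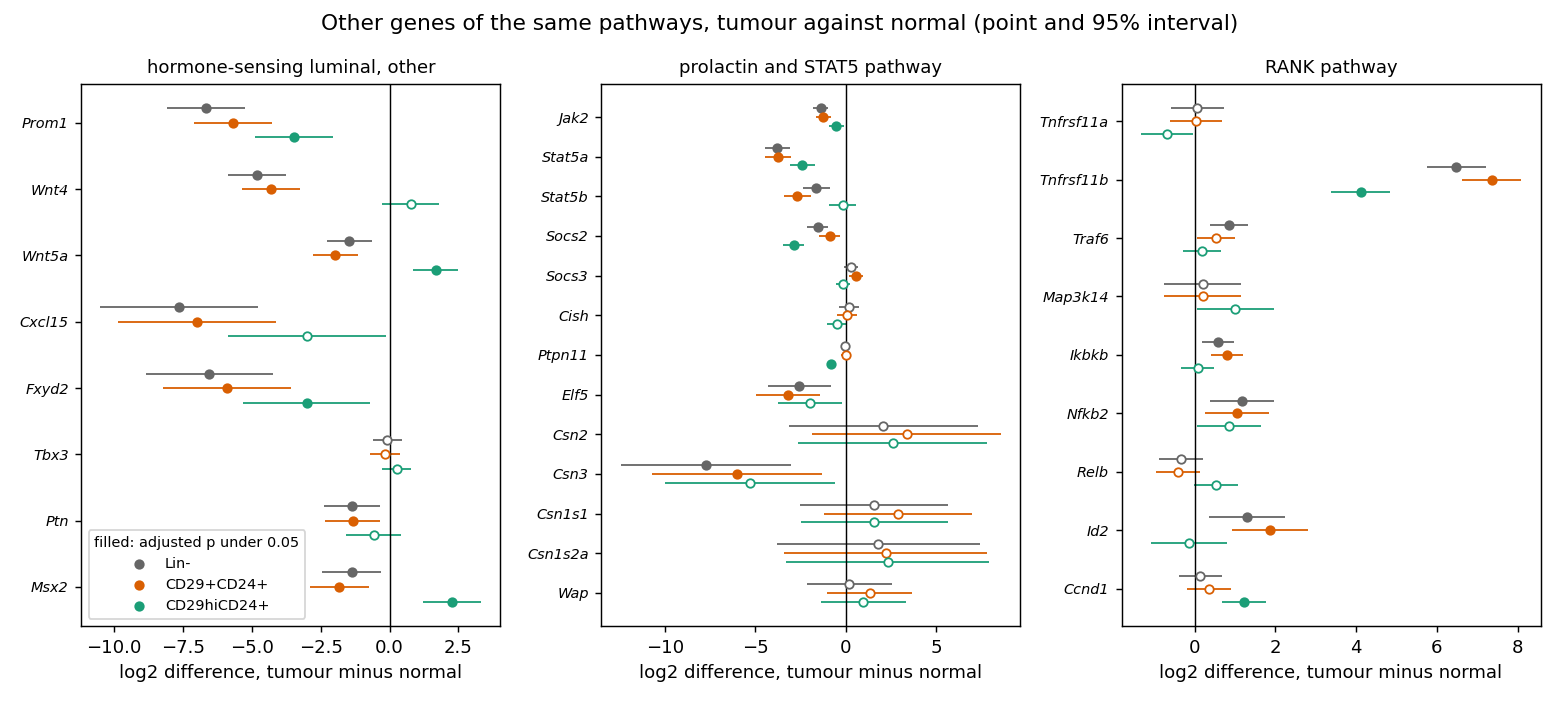
Log2 difference, tumour minus normal, with 95% interval for the measured genes of 3 lists in each sorted population (filled points, adjusted p under 0.05). Stat5a and Prom1 lie below 0 and Tnfrsf11b above 0 in all 3 populations, while Msx2 and Wnt5a lie above 0 in CD29hiCD24+ and below 0 in the other 2.

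Likeness of pattern was described by Pearson's r of log2 signal over the 24 arrays, which share tumours and pools. Cited1 and Foxa1 had r = 0.953, Pgr and Cited1 0.952, and Esr1 and Cited1 0.932. Greb1 correlated with these 4 genes at 0.719 to 0.869, and Tnfsf11 with the other 5 at -0.678 to -0.457. These ranges span both tissues. Among the pools alone, where most Tnfsf11 values were in the low band, its r with Esr1, Pgr, Cited1 and Foxa1 was positive (0.363 to 0.456). With Greb1 it was -0.458 there. Among the tumours alone, Tnfsf11 had r of -0.072 to 0.261 with the 5 genes. For Greb1 and the 4 genes, r was at most 0.467 among the pools and 0.628 among the tumours. Within the 15 tumour arrays Esr1 and Pgr had r = 0.372 and Cited1 and Foxa1 0.858, and within the 9 normal arrays these were 0.98 and 0.99. The most alike of all genes tested were Slc7a2 for Esr1 (r = 0.979), Rhpn2 for Pgr (0.988), Ffar4 for Cited1 (0.993), Ttc6 for Foxa1 (0.972), Daglb for Greb1 (0.928) and Mid1ip1 for Tnfsf11 (0.863). Ttc6 is the coding gene next to Foxa1 on its chromosome in the RefSeq annotation. Stat5a was the fifth most alike to Pgr (0.972).

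**Figure D5:**
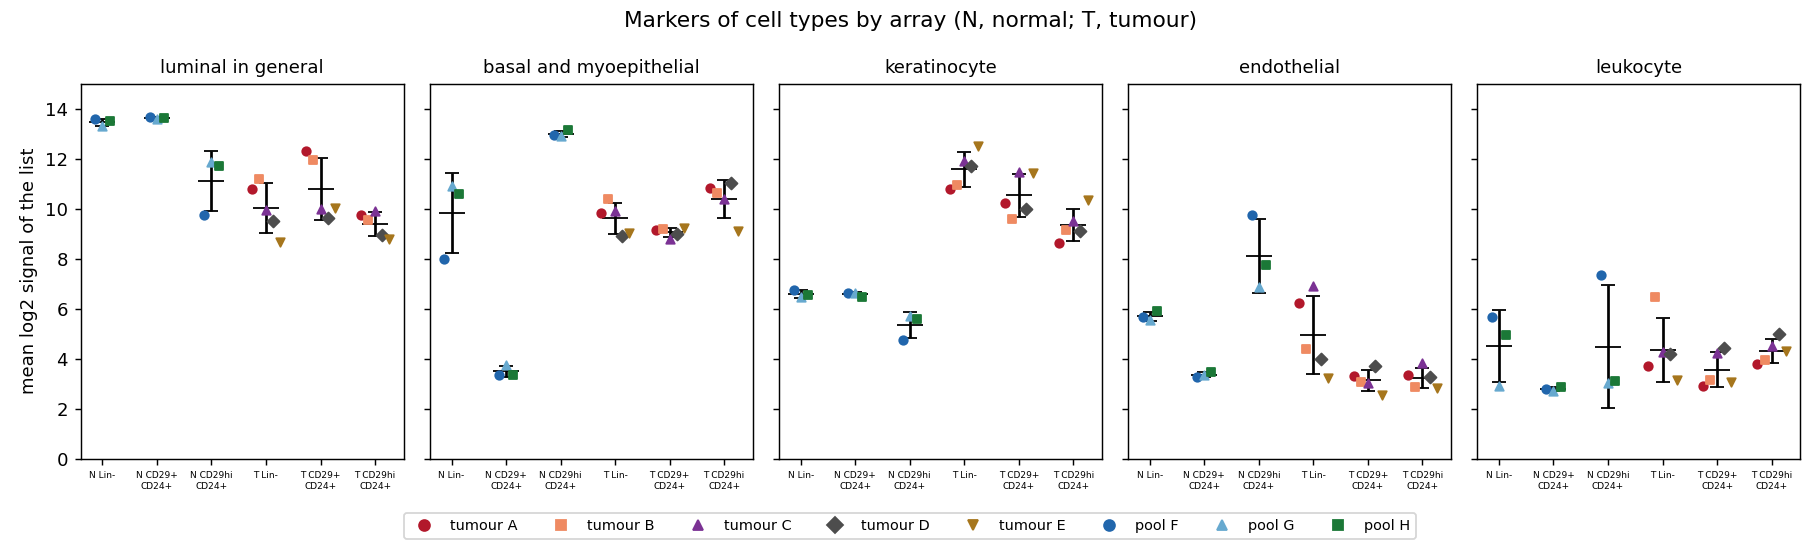
Mean log2 signal of 5 lists of cell type markers in each of the 24 arrays, with the mean and SD of each group. The normal CD29hiCD24+ array of pool F is the lowest of its group in luminal markers and the highest in endothelial and leukocyte markers, and tumours A and B are the highest of tumour CD29+CD24+ arrays in luminal markers.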

How the data were processed

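Sorted mammary cells of 5 tumours and 3 pools of normal glands were measured on 24 Affymetrix arrays after two-cycle labelling. The deposited log2 signals were made by the authors with RMA, GCRMA and Partek, per the submitters' processing notes, which give no version, role or order for them here; they are used as deposited. Pools carry the letter H for 2 samples by elimination, since their titles have none.

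Of 45101 probe sets, 34945 had 1 gene symbol, 932 several, 9160 none and 64 were controls. Probe sets with 1 symbol and a signal above the low band (the lowest 40% of values, up to 2.83) on 3 or more arrays passed the filter (24278), and the one of a gene with the highest mean stands for it. The 6 group means were fitted with limma 3.58.1 in R 4.3.3 (eBayes with a variance trend), with Benjamini-Hochberg adjustment over 13485 genes, and the script was tested on simulated data. P-values measure the spread between tumours and between pools, with all arrays treated as independent. For gate differences and the interaction they do not measure the spread of differences within a tumour or pool. With the tumour or pool as a random block, calls between tumour CD29hiCD24+ and CD29+CD24+ cells went from 4.19% to 13.5% of all genes. Between the same gates in normal glands they went from 46.6% to 54.2%, and in the interaction from 42% to 51%. The number of arrays limits the precision.

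The members and gene lists were chosen with earlier results of these data known. Named are all members, at most 4 called genes of a list in a comparison (those with the largest difference), defining markers, and the genes of highest r with a member. The 3 populations of a tumour share its letter: their residuals had a median r of 0.578 over 15 same-letter pairs and -0.167 over 60 other pairs, and in the pools 0.142 over 9 and -0.07 over 18 pairs. In all, 16 alternatives were planned and 3 were added after seeing the data: without the normal CD29hiCD24+ array of pool F, without tumours A and B, and with RNA shortening, read from the actin probe sets, as a covariate. Promoters were taken from RefSeq (GRCm38.p6), where all 7 symbols matched, and the transcripts that each probe set covers were not used here.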

Additional observations from a re-analysis of the deposited data

Results flagged for a closer look

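In a group of 5 tumours with normally spread values, chance sets 1 sample apart by Dixon's test in about 1 in 20 groups. Each of the 6 measured members was searched in every tumour population, and 2 groups were found. Cited1 in tumour Lin- cells was 4.33 in tumour B, where the next highest was 3.17, a gap of 0.711 of the group's range. Greb1 in tumour CD29+CD24+ cells was 5.03 in tumour B, where the next highest was 2.55, a gap of 0.932 of the range. In both cases most other tumours were in or near the low band, where the stated rate need not hold.

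For 2 of the 6 measured members the difference between the CD29hiCD24+ and CD29+CD24+ gates itself differed between tumour and normal tissue in limma's interaction term. Over all genes tested 42% were called there, so the count does not stand out from the background. The value was 3.60 ± 1.36 (SE, adjusted p = 0.0384) for Cited1 and 2.92 ± 1.07 (adjusted p = 0.0336) for Foxa1, over 5 tumours and 3 pools. The gate difference was negative in 3 of 3 pools for both genes and in 4 of 5 tumours for Foxa1. For Cited1 both gates of tumours C and E were in the low band, so a sign there carries no information. Without the normal CD29hiCD24+ array of pool F the values were 2.0 (adjusted p = 0.178) and 1.83 (adjusted p = 0.152) and neither was called, and both calls were also lost without tumour C, D or E.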

How the results depend on the processing

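Of 1140 member values under 19 alternatives, 1045 kept their direction and side of the threshold, 37 lost a call, 31 gained one and 27 turned sign, all of the last in differences that were not called. Of 190 counts of called members, 171 stayed within 1.5 times and 19 did not, and the cause was not tested. The interaction count (2) was 1 with no low-value filter, 0 with only the groups compared, without the normal CD29hiCD24+ array of pool F or with the actin covariate, and 0 to 3 when 1 tumour or pool was left out. For tumour CD29hiCD24+ against CD29+CD24+ cells (1) it was 0 with the mean of probe sets, with only the groups compared and without tumours A and B, and 0 to 1 with 1 tumour or pool left out. For normal CD29hiCD24+ against Lin- cells (3) it was 5 with the mean of probe sets, and for tumour against normal CD29hiCD24+ cells (5) it was 3 to 5 with 1 tumour or pool left out. With the tumour or pool letter as a replicate block the count for tumour CD29hiCD24+ against Lin- cells was 1 in place of 0, as it was with the description-number term, and the block's other changed calls stand beside their results. Quantile normalization moved the median of all genes in the interaction from 0.04 to 0.16.

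Signs turned as follows (log2). With the actin covariate, normal CD29+CD24+ minus Lin- was -0.53 for Cited1, -0.27 for Esr1, -0.0097 for Foxa1, -0.027 for Pgr and -0.34 for Tnfsf11, and for Tnfsf11 normal CD29hiCD24+ minus CD29+CD24+ was 0.14 and the interaction -0.54. Without tumours A and B, tumour CD29hiCD24+ minus CD29+CD24+ was 0.065 for Cited1 and 0.14 for Greb1, tumour CD29+CD24+ minus Lin- was -0.075 for Cited1, -0.74 for Esr1 and -0.13 for Greb1, and for Tnfsf11 the interaction was -0.25 and tumour CD29hiCD24+ minus Lin- -0.44. With the mean of probe sets, tumour CD29hiCD24+ minus CD29+CD24+ was -0.40 for Esr1. With 1 tumour or pool left out, tumour CD29hiCD24+ minus CD29+CD24+ ran from -0.38 to 0.78 for Esr1, -0.44 to 0.32 for Greb1 and -0.68 to 0.074 for Tnfsf11. Tumour CD29+CD24+ minus Lin- ran from -0.19 to 0.90 for Esr1 and -0.20 to 0.42 for Greb1, and tumour CD29hiCD24+ minus Lin- from -0.017 to 0.12 for Greb1 and -0.12 to 0.85 for Tnfsf11. The interaction ran from -0.38 to 2.24 for Greb1 and -0.26 to 0.88 for Tnfsf11, and normal CD29hiCD24+ minus CD29+CD24+ from -2.42 to 0.20 for Greb1. Signal near the low band limits Cited1 and Greb1 in tumours and Tnfsf11 in normal glands.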

Other observations

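The remaining genes most like a member over the 24 arrays were, for Esr1, Hsd3b7 (r = 0.978), Sqor (0.971), Tgm2 (0.969) and Kif5c (0.969). For Pgr they were Tspan13 (0.979), Cd164 (0.977) and Serinc3 (0.976), and for Cited1 Dnajc12 (0.993), Fgb (0.992), Rassf6 (0.991) and Mlph (0.991). Foxa1 was followed by Trpc6 (0.964), Aqp5 (0.963), Cdo1 (0.961) and Itih2 (0.960), and Greb1 by Limch1 (0.928), Rhou (0.917), Svil (0.911) and Prkd3 (0.911). For Tnfsf11 they were A130010J15Rik (0.851), Arhgef3 (0.851), Slc6a4 (0.834) and Glis1 (0.830). These values describe arrays that share tumours, pools and populations.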
